A study of Mus musculus with 9 samples.

Results

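The comparison is between mouse fibroblasts that carry inducible reprogramming genes and such cells kept in doxycycline for 3 days. Its samples were chosen by title: the 3 arrays titled TSKM-3D (intermediate stage) against the 3 titled fibroblast cell line, 6 of the 9 arrays of the series. The features were 19937 genes, each read from 1 array row. All groups had the strain OG2-GFP/Rosa26-M2rtTA, so the fibroblasts carried the doxycycline-responsive activator M2rtTA and a GFP reporter of the Oct4 gene as well. The fibroblasts came from mice made with TSKM iPS cells, where TSKM stands for Tet1, Sox2, Klf4 and c-Myc. They were collected at passage 4. The TSKM-3D cells, also at passage 4, had left feeder medium for a stem cell medium that contained the cytokine LIF, together with doxycycline, for 3 days. Medium, LIF and doxycycline therefore changed together and cannot be told apart. The 3 iPS arrays (passages 10 to 15) entered the estimate of the spread. They also entered the choice of the row for genes with several rows.

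The third fibroblast array has conflicting labels. By title, source and passage it is a fibroblast array, but its cell type label names 3-day induced cells. By its values it lay with the fibroblast arrays, with Pearson correlations across genes of 0.9978 to 0.9984 among those 3 arrays. Correlations across the groups were 0.9501 to 0.9548. The array was treated as its title says. Without it the comparison gave 665 genes higher and 1533 lower, against 648 and 1511 with it. Placed with the TSKM-3D arrays, as the cell type label has it, 0 genes were higher and 0 lower, and 5359 had an unadjusted p under 0.05 (limma). No label states whether a group's arrays were hybridised with RNA of separate cultures or mice. The p-values therefore reflect only how these arrays differ, and part of that may be technical. The labels also do not name the tissue of the fibroblasts.

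Fibroblasts are held in their state by a network of mesenchymal transcription factors, by growth factor receptors and by the matrix they secrete. Reprogramming factors bind widely in the first days after induction. Fibroblast genes are typically shut down and cell division and metabolism altered in that early phase, long before the endogenous pluripotency genes switch on. MYC in particular is known for raising genes of ribosome production, and it is a direct activator of the miR-17 microRNA cluster.

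Values are log2 expression values as deposited. A difference is TSKM-3D minus fibroblast, in log2 units, with the standard error (SE) from limma (n = 3 arrays in each group). Genes are called here at an adjusted p under 0.05 (Benjamini-Hochberg over all genes) together with a difference of at least 2-fold. The fold decided the calls, because the highest adjusted p among genes past 2-fold was 0.0225 (limma). Another 6727 of the 8886 genes with an adjusted p under 0.05 (limma) lay under 2-fold and are not called here.

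By this rule 648 genes (3.25%) rose and 1511 (7.58%) fell, or 10.8% of all genes either way. The arrays of the 2 groups did not overlap for 53.1% of all genes. The median difference of all genes was 0.05. Of the genes that rose, 104 were at least 4-fold higher, 25 at least 8-fold and 6 at least 16-fold. Among those that fell, 244 were at least 4-fold lower, 45 at least 8-fold and 18 at least 16-fold. Calls followed the level on the array. Among the dimmest genes (means of 2.62 to 5.19) 17 rose and 14 fell, and among the brightest (8.56 to 13.7) 289 rose and 656 fell.

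The TSKM-3D arrays were less alike than the fibroblast arrays. The median SD of a gene was 0.132 over the TSKM-3D arrays and 0.07 over the fibroblast arrays. An SD above 0.5 occurred for 125 genes on the TSKM-3D arrays, and for 97 of them the second replicate lay farthest from the other two. Without that array 734 genes rose and 1488 fell. Some genes read exactly the same on all 3 arrays of a group: 222 on the TSKM-3D arrays and 399 on the fibroblast arrays, 39 and 20 of them called. Their spread may be understated. Across genes, Pearson correlations lay between 0.9978 and 0.9984 among fibroblast arrays, between 0.9909 and 0.9962 among TSKM-3D arrays, and between 0.9501 and 0.9548 across the groups.

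**Figure D1:**
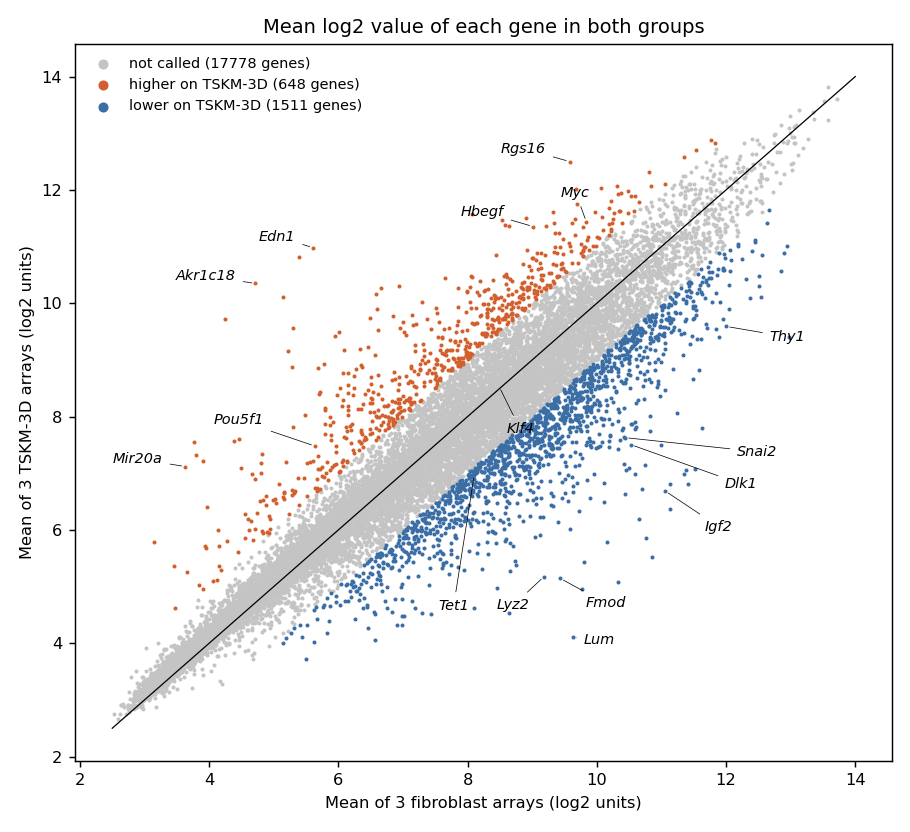
Each point is 1 of the 19937 genes, plotted by its mean over the 3 fibroblast arrays (x axis) and the 3 TSKM-3D arrays (y axis), both in log2 units, with the line of equality. The 648 orange genes rose and the 1511 blue genes fell by at least 2-fold; Klf4 lies on the line and Tet1 below it.

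Of the introduced factors, Myc and Sox2 rose, Klf4 was not called, and Tet1 fell. Myc, the growth-promoting transcription factor, read 9.79, 9.80 and 9.92 on the fibroblast arrays and 11.46, 11.37 and 11.48 on the TSKM-3D arrays. Sox2, a partner of OCT4 in stem cells, read 5.13, 5.10 and 5.22 against 6.56, 6.69 and 6.38. Neither gene's groups overlapped, and the differences were 1.60 ± 0.076 (adjusted p = 1.95e-08, limma) and 1.39 ± 0.086 (adjusted p = 1.36e-07, limma). Klf4, a zinc finger factor, read 8.53, 8.39 and 8.55 against 8.43, 8.58 and 8.59, overlapping ranges with a difference of 0.044 ± 0.086 (adjusted p = 0.708, limma).

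Tet1, which encodes an enzyme that oxidises methylated cytosine, read 8.18, 8.07 and 8.05 on the fibroblast arrays and 7.03, 6.98 and 6.92 on the arrays labelled TSKM-3D. Every TSKM-3D value was lower, with a difference of -1.13 ± 0.073 (adjusted p = 1.79e-07, limma). This goes against the label, which names cells in which Tet1 was induced, so the directions below are those of arrays carrying that label. Tet1 had 3 array rows, with differences between -1.23 and -0.46, of which 2 were called lower. The call was lost with the mean of the rows and with quantile normalization. Where the probes lie relative to the introduced copies is not given in the sources used here.

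Pou5f1, the Oct4 gene and not among the introduced factors, read 5.89, 5.37 and 5.65 on the fibroblast arrays and 7.47, 7.34 and 7.63 on the TSKM-3D arrays. It rose by 1.85 ± 0.12 (adjusted p = 2.35e-07, limma). Nanog, another core gene of the pluripotent state, overlapped between the groups (5.67, 5.91 and 5.71 against 5.77, 5.49 and 5.70; difference -0.11 ± 0.096). Among 22 other pluripotency genes 1 rose and 0 fell, with a median difference of 0.21. That gene was Klf5, which read 7.70, 7.53 and 7.56 against 9.42, 9.40 and 9.42. Sall4, Lin28a, Esrrb and Zfp42 were not called, with differences of -0.18, 0.15, 0.034 and 0.23.

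The largest rise was that of Akr1c18, which encodes an aldo-keto reductase that inactivates progesterone. It read 4.64, 4.80 and 4.71 on the fibroblast arrays and 10.56, 9.68 and 10.81 on the TSKM-3D arrays, a difference of 5.63 ± 0.25 or 49.6-fold (adjusted p = 1.09e-08, limma). The second TSKM-3D array was the lowest of its group and still lay far above every fibroblast array. A relative, Akr1c14, rose by 2.53 ± 0.26 with the same array lowest (7.66, 6.57 and 7.81 against 4.91, 4.73 and 4.80 on the fibroblast arrays). Those were the 2 aldo-keto reductases of 15 tested that rose, and 0 fell.

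Aldh1a7 and Aldh1a1, close relatives among the retinaldehyde and aldehyde dehydrogenases, both rose. Aldh1a7 read 4.30, 4.21 and 4.21 against 9.81, 9.52 and 9.83, a difference of 5.48 ± 0.097 (adjusted p = 6.16e-11, limma). Its fibroblast values lay under the lower quartile of their arrays (4.54 to 4.55), and with values raised to the quartile the difference was 5.18. Aldh1a1 read 5.32, 5.04 and 5.29 against 9.24, 8.84 and 9.39, a difference of 3.94 ± 0.13. How far the rows of such similar genes read each other's transcripts was not tested. In the list of 22 retinoid handling genes, which holds both, 3 rose and 5 fell, with a median of -0.04. Rdh10, which makes retinaldehyde from retinol, rose by 1.23. Dhrs3, which reduces retinaldehyde back, fell by 1.87, and the retinoic acid receptor gene Rara fell by 1.45.

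Edn1, the gene of the vasoconstrictor endothelin-1, read 5.79, 5.42 and 5.62 on the fibroblast arrays and 10.90, 10.92 and 11.12 on the TSKM-3D arrays. The TSKM-3D values stood together and the difference was 5.37 ± 0.10, or 41.4-fold (adjusted p = 6.94e-11, limma). Gna14, a G protein subunit that couples receptors to phospholipase C, rose from 5.15, 5.53 and 5.197 to 9.57, 9.41 and 9.71. Rgs16, which switches G protein signals off and was picked after its values were seen, rose from 9.59, 9.54 and 9.61 to 12.45, 12.55 and 12.50. Among 20 vasoactive peptide and receptor genes 2 rose and 5 fell (median 0.04). The other rise was Adm (adrenomedullin, 1.04), whose call was lost when array medians were set equal and without the second TSKM-3D array. Agtr2, an angiotensin receptor, fell by 2.08.

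Sostdc1, a secreted antagonist of BMP and WNT signals, read 5.196, 5.04 and 5.21 against 10.14, 9.95 and 10.23 and rose by 4.96 ± 0.097 (31.1-fold, adjusted p = 7.9e-11, limma). Krt19, a keratin of simple epithelia, read 6.72, 6.65 and 6.61 against 10.24, 10.21 and 10.34 and rose by 3.61 ± 0.072. It was 1 of 2 rises among 17 keratin and intermediate filament genes, the other being the lamin gene Lmnb1 (1.27). Krt8 and Krt18, the keratin pair of simple epithelia, were not called (0.35 and 0.15), and neither were the epithelial surface genes Cdh1 (0.34) and Epcam (0.34).

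Usp17ld belongs to a family of near-identical deubiquitinase genes. It read 4.92, 5.47 and 5.79 against 11.11, 10.72 and 10.60, a difference of 5.41 ± 0.19. Of 4 family members tested 2 rose, the other being Usp17lc (1.08, a call lost with quantile normalization), and copies of this kind may share signal on an array. Srsy, a multicopy gene of the Y chromosome, had 10 rows, of which 7 were called higher; the row used, which had the largest difference, rose by 3.48 ± 0.21, and the mean of the rows by 1.48. The remaining genes among the 15 largest rises were Cd200r2, an immune receptor gene (3.79, or 3.01 with dim fibroblast values raised to the lower quartile), Tspan13, a tetraspanin (3.59), Slc13a5, the citrate transporter (3.59), Ereg (3.51) and 2 microRNA genes. The last 3 are described with their groups.

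Several of the largest falls were of genes of the connective tissue matrix. Lum, the proteoglycan lumican that orders collagen fibrils, read 9.61, 9.66 and 9.60 on the fibroblast arrays and 3.71, 4.36 and 4.27 on the TSKM-3D arrays. It fell by 5.51 (SE 0.17; adjusted p = 1.03e-09, limma). Its TSKM-3D values lay under the lower quartile of all values on their own arrays (4.61 to 4.73), and with values raised to the quartile the difference was -4.96. Aspn (asporin) read 10.71, 10.91 and 10.96 against 5.29, 5.32 and 5.93, with the third TSKM-3D array highest. Dcn (decorin), a proteoglycan that binds collagen and TGF-beta, read 11.46, 11.54 and 11.54 against 7.06, 6.997 and 7.16.

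A protease inhibitor gene and tendon genes were among the other large falls. Serpina3n, a protease inhibitor, read 10.32, 10.28 and 10.40 against 5.07, 5.30 and 4.88. Tnmd, the tendon gene tenomodulin, read 9.65, 9.75 and 9.91 against 4.97, 5.01 and 4.92, and Thbs4, a thrombospondin of tendon and muscle, read 10.73, 10.65 and 10.56 against 6.31, 6.32 and 5.92. All 3 were picked among genes whose groups did not overlap, and their differences were -5.25, -4.81 and -4.46.

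Igf2, the imprinted gene of insulin-like growth factor 2, read 11.06, 11.05 and 11.06 against 6.61, 6.91 and 6.54 and fell by 4.37 (20.7-fold, adjusted p = 1.18e-10, limma). Osr1, a transcription factor of limb and kidney mesenchyme, read 11.46, 11.36 and 11.33 on the fibroblast arrays and 7.06 on each TSKM-3D array. P4ha3, a collagen prolyl hydroxylase, read 11.08, 11.12 and 11.20 and then 6.81 on each TSKM-3D array. Equal readings of that kind hide part of the spread. Srpx2, Lrrc17, Dpt, Medag and Lrrc32 completed the protein-coding falls, with differences between -4.91 and -4.36. The small nucleolar RNA gene Snora21 fell by 4.76 on the row used, while its other row was not called (-0.44) and the mean of the rows differed by -2.60.

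These are bulk samples, so fewer cells of a type and less RNA per cell cannot be told apart. Of 15 fibroblast markers 7 fell and 0 rose. Thy1, a surface marker of fibroblasts that is lost early in reprogramming, read 12.03, 11.96 and 12.01 against 9.498, 9.71 and 9.56. The markers that were not called included Vim (0.019), Col1a1 (0.11) and Fn1 (-0.55). Summed on the linear scale, the 15 markers came to between 61341 and 61867 on the fibroblast arrays and between 41634 and 42498 on the TSKM-3D arrays.

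**Figure D2:**
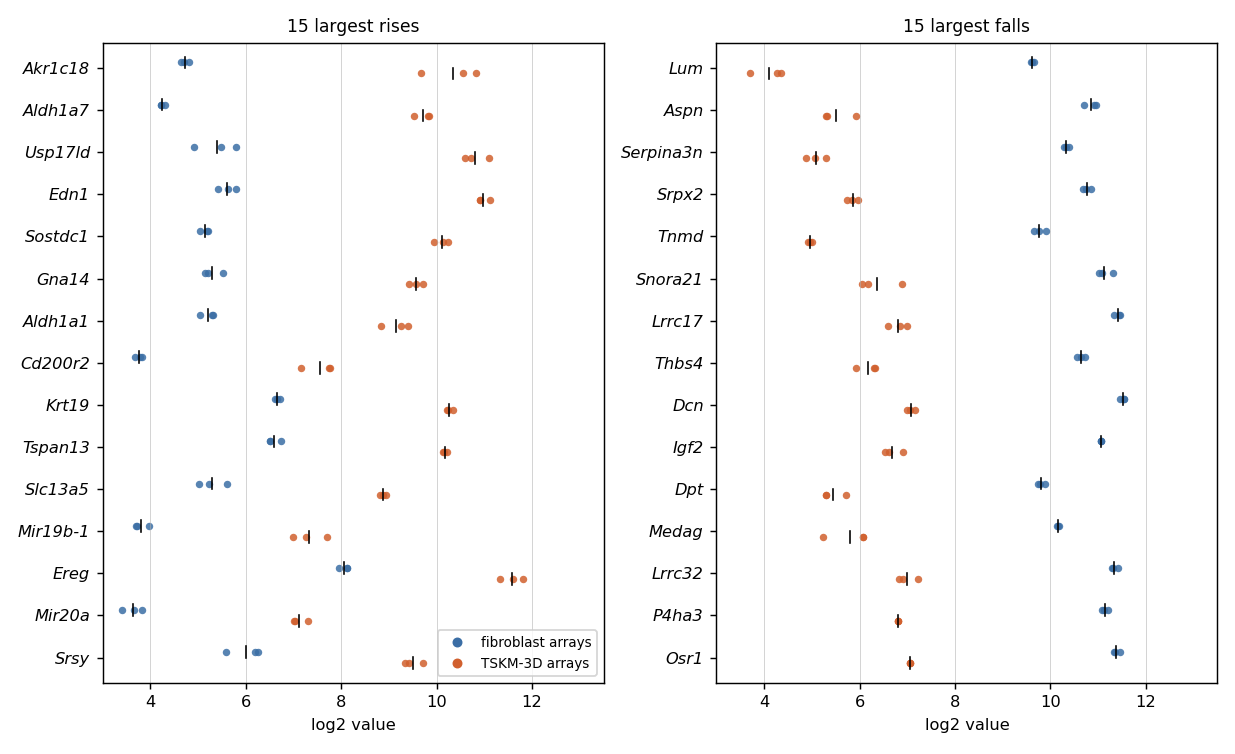
Log2 values on each array for the 15 genes that rose most (left) and the 15 that fell most (right), with blue points for the 3 fibroblast arrays, orange points for the 3 TSKM-3D arrays and black ticks for the group means. The genes were picked among those whose groups did not overlap, and Akr1c18 had the lowest of its TSKM-3D values at 9.68.

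Of 307 microRNA gene rows 15 rose and 5 fell, with a median of 0.16. The longest run of neighbouring genes called in 1 direction was the miR-17 cluster on chromosome 14, whose members are cut from 1 host transcript, Mir17hg. MicroRNAs of this cluster promote cell division and survival. They are shown because 3 seed families rose together here. The seed (bases 2 to 8, in capitals) is the part that pairs with target messages. A further member of the cluster, Mir92-1 (seed AUUGCAC), was not among the genes tested. RefSeq, on build GRCm38.p6, places all of the microRNAs shown on the plus strand. The miR-17 family (chr14:115043684-115043706 and chr14:115044183-115044205), the miR-18 family (chr14:115043867-115043889) and the miR-19 family (chr14:115044048-115044070 and chr14:115044358-115044380) read 5′ to 3′:
miR-17-5p: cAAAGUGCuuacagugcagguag
miR-20a-5p: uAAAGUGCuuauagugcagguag
miR-18a-5p: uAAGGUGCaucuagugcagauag
miR-19a-3p: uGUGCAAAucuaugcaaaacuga
miR-19b-3p: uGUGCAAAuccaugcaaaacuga

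Both members of the miR-17 family shared the seed AAAGUGC and rose. Mir17 read 4.11, 3.89 and 3.89 on the fibroblast arrays and 6.399, 6.43 and 6.38 on the TSKM-3D arrays, a difference of 2.44 ± 0.091. Mir20a read 3.82, 3.40 and 3.66 against 7.04, 7.02 and 7.29, a difference of 3.49 ± 0.11 (adjusted p = 1.4e-09, limma). Mir18, with the seed AAGGUGC, read 4.45, 4.34 and 4.69 against 6.85, 6.77 and 7.65. The third TSKM-3D array was its highest.

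The miR-19 pair carries the seed GUGCAAA. Mir19a read 2.89, 3.12 and 3.45 against 5.55, 5.40 and 6.44, and Mir19b-1 read 3.97, 3.70 and 3.71 against 6.99, 7.26 and 7.71. The third TSKM-3D array was again the highest, and all groups were apart. Differences were 2.64 ± 0.23 and 3.53 ± 0.18. The fibroblast readings of Mir17, Mir20a, Mir19a and Mir19b-1 lay under the lower quartile of their arrays (4.54 to 4.55), so their exact size is uncertain. With such values raised to the quartile the differences were 1.86 for Mir17, 2.57 for Mir20a, 1.25 for Mir19a and 2.78 for Mir19b-1, all still called. The host transcript Mir17hg rose less, from 4.78, 4.67 and 4.48 to 6.10, 5.97 and 6.402. A whole-transcript array may read the precursor and host RNA rather than the mature microRNA.

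In the miR-23a cluster on chromosome 8, Mir23a and Mir27a rose by 1.38 ± 0.16 and 1.37 ± 0.16, while Mir24-2 was not called (0.55 ± 0.13). Mir23a read 6.86, 6.80 and 6.94 against 7.94, 8.62 and 8.19.

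All 5 microRNA genes that fell lay in the imprinted Dlk1-Dio3 region of chromosome 12, a region noticed after the values were seen. It holds a paternally expressed growth regulator, Dlk1, and maternally expressed non-coding RNAs, Meg3 and Rian, with a long row of microRNAs. Mir377 read 6.98, 6.89 and 6.87 on the fibroblast arrays and 4.19, 4.37 and 4.40 on the TSKM-3D arrays, and Mir382 read 7.005, 7.04 and 7.02 against 4.46, 4.56 and 4.44. Their groups stood far apart, and they differed by -2.59 ± 0.15 and -2.54 ± 0.12, or -2.24 and -2.35 with values raised to the lower quartile, under which the TSKM-3D readings lay. Mir300 (-1.60), Mir323 (-1.36) and Mir329 (-1.01) fell less. The Mir300 call was lost with dim values raised to the lower quartile, and the Mir329 call without the first array of either group. Of the region's 39 microRNA rows 28 differed in the negative direction, with a median of -0.25, and 0 rose. The mature forms of the 2 largest falls, at chr12:109740553-109740574 and chr12:109733781-109733802 on the plus strand, have different seeds (capitals):
miR-377-3p: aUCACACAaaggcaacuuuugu
miR-382-5p: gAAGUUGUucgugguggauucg

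The long transcripts of the region moved the same way. Dlk1, a membrane protein that restrains adipocyte differentiation, read 10.59, 10.47 and 10.52 against 7.24, 7.94 and 7.33 and fell by 3.03 (SE 0.16). Meg3 read 10.11, 9.88 and 9.88 against 7.83, 8.48 and 8.42, and Rian read 7.35, 6.87 and 6.99 against 5.32, 6.07 and 5.34. Both fell, and in both genes the first TSKM-3D array was the lowest. Rtl1 (-0.086) and Dio3 (-0.63) were not called.

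**Figure D3:**
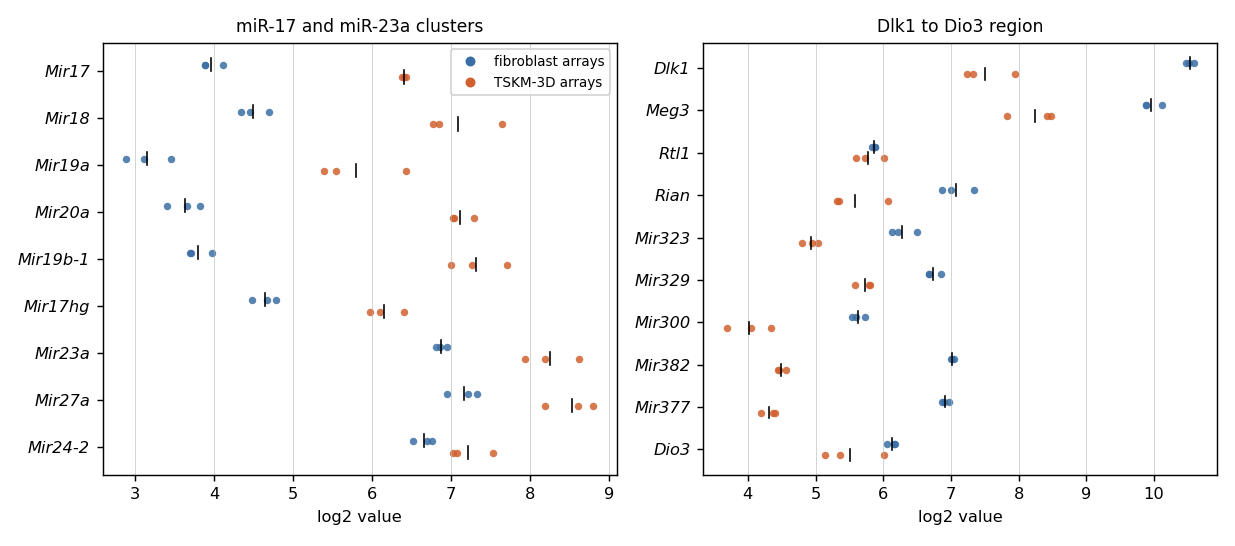
Log2 values on each fibroblast array (blue) and TSKM-3D array (orange), with group means as black ticks, for the miR-17 and miR-23a clusters (left) and for 10 genes of the Dlk1 to Dio3 region (right). The 6 tested genes of the miR-17 cluster were higher on every TSKM-3D array. In the right panel Rtl1 and Dio3 were not called and the other 8 genes were lower.

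In the whole list of imprinted genes, which includes Igf2, Dlk1, Meg3 and Rian, 9 of 33 fell and 1 rose, with a median of -0.09. Mest, a maternally imprinted hydrolase gene, read 10.36, 10.43 and 10.47 against 7.11, 7.003 and 7.35. Ndn (necdin) read 10.67, 10.80 and 10.69 against 8.63, 8.29 and 8.68, and the zinc finger gene Peg3 fell by 1.27. The 1 rise was Nap1l5, from 6.87, 7.01 and 6.74 to 8.78, 8.37 and 8.84. The cell cycle inhibitor gene Cdkn1c was not called (-0.091).

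Genes of the IGF system include the ligand gene Igf2. Of 19 such genes 6 fell and 2 rose (median -0.20). Igfbp4 read 10.69, 10.57 and 10.63 against 8.32, 8.16 and 8.42, and Igfbp7 read 12.76, 12.88 and 12.92 against 10.59, 10.51 and 10.61. Both bind or modulate IGF outside the cell and were lower on every TSKM-3D array. Pappa, the protease that cleaves IGFBP4, fell by 2.13, and Igfbp5 by 2.00. Igfbp3 and the adaptor gene Irs2 rose by 1.10 and 1.08, calls that were lost without the third TSKM-3D array. The receptor genes Igf1r (0.090) and Igf2r (0.70) were not called.

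The EGF receptor ligand genes Hbegf and Ereg rose. Hbegf, the heparin-binding EGF-like factor, read 8.99, 8.96 and 9.09 on the fibroblast arrays and 11.35, 11.29 and 11.41 on the TSKM-3D arrays, a difference of 2.34 ± 0.077 (adjusted p = 1.59e-09, limma). Ereg, which encodes epiregulin, read 8.12, 7.95 and 8.12 against 11.59, 11.33 and 11.81 and rose 11.4-fold. Both ligand genes stood clear of the fibroblast range on all arrays. Nrg1, a neuregulin that signals through other ERBB receptors, went the other way (8.48, 8.56 and 8.62 against 6.85, 6.69 and 6.90). Of the receptors, Erbb4 rose by 1.59 ± 0.082 and Egfr was not called (-0.90 ± 0.092). In all, 3 of 16 genes of this list rose and 2 fell (median 0.08).

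Genes that respond to and restrain ERK signalling were divided. Of 23 feedback genes 5 rose and 4 fell, with a median of 0.16. Dusp6, the phosphatase that inactivates ERK in the cytoplasm, read 9.10, 9.16 and 9.39 against 11.29, 11.45 and 11.37. Dusp7, its close relative, read 10.98, 10.92 and 10.94 against 9.01, 9.05 and 9.01. The 2 phosphatase genes thus moved in opposite directions, by 2.15 ± 0.094 and -1.93 ± 0.077. The Sprouty inhibitors were split as well: Spry2 and Spry4 rose by 1.74 and 1.41, while Spry1 and Spry3 fell by 1.30 and 2.40.

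The immediate early genes, which cells switch on rapidly after a growth or stress signal, rose in 9 of 18 cases and fell in 1, with a median of 1.05. Egr2 read 7.81, 7.76 and 7.97 on the fibroblast arrays and 10.24, 10.21 and 10.33 on the TSKM-3D arrays. Nr4a1, an orphan nuclear receptor gene, read 9.93, 9.45 and 9.63 against 11.99, 12.02 and 12.06. Their differences were 2.41 ± 0.083 and 2.35 ± 0.12, and neither gene's groups overlapped. Ier2 (2.12), Arc (1.84) and Egr3 (1.73) rose too.

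The classic members stayed under 2-fold. Egr1 differed by 0.31 ± 0.073, Fos by 0.50 ± 0.12 and Jun by 0.36 ± 0.084, with adjusted p of 0.00386, 0.00482 and 0.00421 (limma). Nr4a2, the relative of Nr4a1, fell from 8.73, 8.40 and 8.41 to 6.83 on each TSKM-3D array. Among 15 AP-1 subunit genes, which code for the FOS, JUN, ATF and MAF dimers, 2 rose and 1 fell (median 0.49). Atf3, a stress-induced member, read 7.26, 7.06 and 7.08 against 9.65, 10.01 and 9.72 and rose by 2.66 ± 0.099. Maff rose by 2.09 and Maf fell by 1.87. With quantile normalization the number of AP-1 genes that rose was 4.

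BMP signals act through SMAD proteins and switch on the ID genes, which block differentiation factors. Id4 read 7.60, 7.42 and 7.49 against 9.93, 9.74 and 10.08, Id3 read 9.01, 8.96 and 8.77 against 10.89, 10.91 and 11.01, and Id1 read 8.72, 8.76 and 8.79 against 10.11, 10.28 and 10.23. All 3 rose, by 2.41 ± 0.10, 2.02 ± 0.12 and 1.45 ± 0.11. Id2 overlapped between the groups (-0.18). The ligand gene Bmp4 fell, from 8.90, 8.91 and 8.94 to 6.39, 6.51 and 6.68. Its extracellular antagonist Grem1 fell too, from 10.90, 10.72 and 10.83 to 7.97, 8.01 and 8.03, whereas the antagonist genes Fst and Sostdc1 rose by 1.81 and 4.96. In the list of 33 genes 5 rose and 5 fell, with a median of -0.20.

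**Figure D4:**
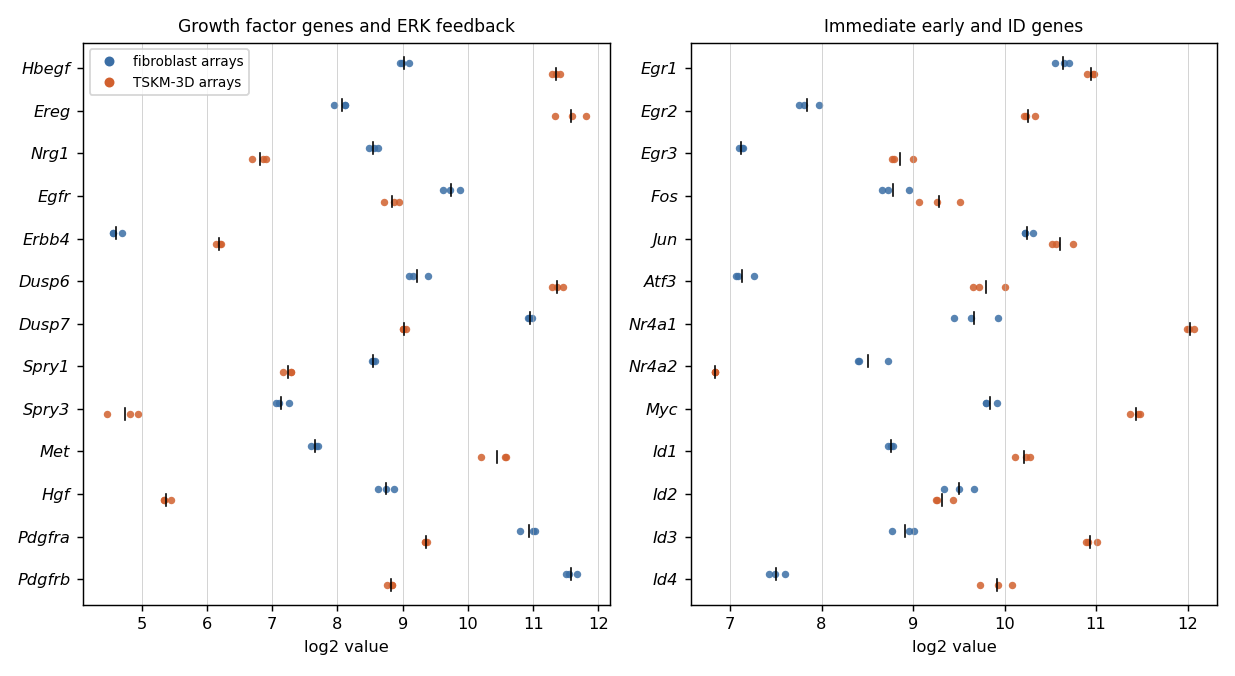
Log2 values on each fibroblast array (blue) and TSKM-3D array (orange), with group means as black ticks, for growth factor and ERK feedback genes (left) and immediate early and ID genes (right). Hbegf, Ereg, Dusp6, Met, Egr2, Nr4a1, Id3 and Id4 lie higher on the TSKM-3D arrays, and Dusp7, Hgf, Pdgfrb and Nr4a2 lie lower.

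The PDGF receptor genes fell. Pdgfrb, the beta receptor for platelet-derived growth factor, read 11.66, 11.51 and 11.55 on the fibroblast arrays and 8.76, 8.84 and 8.84 on the TSKM-3D arrays. Pdgfra read between 10.80 and 11.03 on the fibroblast arrays, against 9.37, 9.34 and 9.34. Both fell, by 2.76 (SE 0.088) and 1.59 (SE 0.087), and so did the ligand gene Pdgfc, by 2.09.

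Hepatocyte growth factor and its receptor moved in opposite directions. Hgf, the ligand gene that fibroblasts express, read 8.86, 8.75 and 8.62 against 5.34, 5.46 and 5.34 and fell 10.3-fold (adjusted p = 2.65e-10, limma). Met, the receptor gene that epithelial cells express, read 7.70, 7.68 and 7.59 against 10.56, 10.20 and 10.58 and rose 6.93-fold (adjusted p = 8.5e-09, limma). It was the 1 rise in a list of 21 receptor tyrosine kinase and ligand genes, of which 5 fell (median -0.37). Among 22 FGF genes 4 fell and 0 rose (median 0.13), Fgf10 by 1.39 and Fgf2 by 1.31. With quantile normalization 2 FGF genes fell, as Fgfr1 (-1.11) and Fgf7 (-1.07) lost their calls.

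TGF-beta and activin genes had a median of -0.65 over 24 genes, with 3 rises and 5 falls. Tgfbi, a secreted adhesion protein that TGF-beta induces, read 10.80, 10.80 and 10.83 against 8.66, 8.67 and 8.66. The co-receptor gene Tgfbr3 read 10.59, 10.50 and 10.44 against 8.47, 8.41 and 8.64, and the signal transducer Smad3 fell by 1.23. Smad7 and Skil, both feedback inhibitors of the pathway, went up. Smad7 read 8.37, 8.25 and 8.15 against 9.95, 9.96 and 10.07, and Skil rose by 1.70.

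Of 45 WNT genes 8 fell and 1 rose (median -0.07). Lgr5, a receptor for R-spondins that marks stem cells in several tissues, read 9.14, 9.11 and 8.90 against 5.98, 5.797 and 5.86 and fell 9.01-fold. The secreted antagonist genes Dkk3 and Sfrp2 fell by 1.93 and 1.24. Sfrp4 rose by 1.16, a call lost without the third TSKM-3D array. With quantile normalization 5 WNT genes fell and 2 rose.

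The Notch target genes Hey1, Hes1 and Hey2 rose. Hey1, a repressor that Notch switches on, read 6.62, 6.62 and 6.60 on the fibroblast arrays and 9.53, 9.22 and 9.85 on the TSKM-3D arrays. Hes1 read 9.57, 9.51 and 9.61 against 11.02, 10.92 and 11.22, and the ligand gene Jag1 read 8.91, 8.83 and 8.70 against 10.12, 10.08 and 10.18. The differences were 2.92 ± 0.15, 1.49 ± 0.099 and 1.31 ± 0.085, with no overlap between groups. Hey2 rose by 1.43. In the combined list of 29 Notch and hedgehog genes 4 rose and 2 fell (median 0.11). The hedgehog co-receptor gene Gas1 fell from 11.04, 11.01 and 10.88 to 8.36, 8.38 and 8.38.

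The medium of the TSKM-3D cells contained LIF, which signals through gp130 and STAT3. Of 21 genes of this family 2 rose and 4 fell (median -0.04). The gp130 gene Il6st and the oncostatin receptor gene Osmr fell by 1.39 and 1.86. Socs3, a target that STAT3 normally raises, read 8.90, 8.94 and 8.86 against 8.69, 9.001 and 8.90 and was not called (-0.039), nor was Stat3 (-0.33). Lif itself rose, from 6.69, 6.50 and 6.62 to 8.14, 7.95 and 7.88.

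Matrix genes are given by family. Of 11 fibrillar collagens 0 rose or fell, with a median of 0.25; 5 had an adjusted p under 0.05 and 6 an unadjusted one (limma), all under 2-fold. Col1a2 differed by 0.60 ± 0.11 and Col3a1 by 0.59 ± 0.13. Of the small leucine-rich proteoglycans 8 of 15 fell and 0 rose (median -1.07). Fmod (fibromodulin) read 9.51, 9.38 and 9.41 against 5.19, 5.41 and 4.83, and Bgn (biglycan) read 12.83, 13.04 and 12.97 against 11.03, 10.90 and 11.09. Those differed by -4.29 ± 0.19 and -1.94 ± 0.089. Ogn (-2.90), Podn (-1.67) and Prelp (-1.07) fell too, the last not with quantile normalization.

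Elastic fibre and lysyl oxidase genes fell in 10 of 20 cases and rose in 1 (median -0.91). Lox, the enzyme that cross-links collagen and elastin, read 12.55, 12.55 and 12.55 on the fibroblast arrays and 10.07, 9.996 and 10.25 on the TSKM-3D arrays. Efemp1 read 10.55, 10.62 and 10.60 against 7.85, 7.64 and 7.87, and Ltbp2 read 10.37, 10.16 and 10.05 against 7.36, 7.67 and 7.37. The folds were 5.44, 6.99 and 6.63, and no TSKM-3D array reached a fibroblast value. Fbn2, a fibrillin of embryonic tissues, rose from 9.19, 9.05 and 8.93 to 10.83, 10.69 and 10.77. Eln, elastin itself, was not called (-0.053).

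Collagens of other types went both ways. Col4a5 and Col4a6, which lie side by side in the genome and form part of basement membranes, both rose. Col4a6 read 5.70, 5.65 and 5.70 against 8.89, 8.75 and 8.94, and Col4a5 read 7.34, 7.27 and 7.25 against 10.19, 9.79 and 10.08. The differences were 3.18 ± 0.090 and 2.73 ± 0.10. Col6a2 and Col6a3, chains of the beaded collagen VI, fell (-2.04 and -2.32), while Col6a1 was just under 2-fold (-0.93). In this list 3 of 30 rose and 2 fell (median 0.26). Of 17 other basement membrane genes 2 rose and 1 fell (median 0.36). Lama2 and Nid2 rose by 1.51 and 1.30, and Smoc2, a secreted calcium-binding protein, fell from 9.38, 9.34 and 9.25 to 7.47, 7.43 and 7.47.

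Proteases and their inhibitors fell more often than they rose, as did all genes (7.58% lower, 3.25% higher). In all, 11 of 34 matrix protease genes fell (32.4%) and 1 rose (2.94%), with a median of -0.34. Of 17 serpins 6 fell (35.3%) and 0 rose (median -0.22). Timp1, an inhibitor of metalloproteinases, read 12.45, 12.52 and 12.56 against 10.39, 10.09 and 10.44. Mmp23 read 9.90, 9.91 and 9.91 against 7.32, 7.54 and 7.52, and the gelatinase gene Mmp9 read 7.68, 7.44 and 7.57 against 5.61, 5.78 and 5.06. The rise was Adamts20, by 1.34. Serpinb9, an inhibitor of granzyme B, fell by 2.37, and Serpinh1, the chaperone of collagen folding, by 1.09, a call lost with quantile normalization.

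Genes of secreted immune mediators fell more often than they rose, as did all genes (7.58% lower, 3.25% higher). Of 33 chemokine genes 7 fell (21.2%) and 2 rose (6.06%), with a median of -0.13. Cxcl12, which retains blood stem cells and is a product of stromal fibroblasts, read 8.59, 8.45 and 8.67 on the fibroblast arrays and 5.97, 6.10 and 5.96 on the TSKM-3D arrays. Ccl11 (eotaxin) read 8.39, 8.38 and 8.32 against 6.44, 6.23 and 6.18. Ccl20 rose from 5.74, 5.49 and 5.81 to 7.21, 7.13 and 6.87. Ccl19 rose by 1.19 on the row used, while its other 3 rows were not called, and the call was lost with the mean of the rows (0.21). The inflammatory genes Ccl2, Cxcl1 and Il6 were not called, at -0.024, -0.24 and 0.30. Of 22 cytokine and colony-stimulating factor genes 4 fell (18.2%) and 1 rose (4.55%), with a median of 0.01. Of 17 complement genes 4 fell (23.5%) and 0 rose (median -0.42), with Masp1 and Cd59a lower by 2.49 and 2.29.

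Macrophage markers moved with these genes. Of 19 markers 6 fell and 0 rose, and their summed linear level was 2350 to 2488 on the fibroblast arrays and 926 to 1041 on the TSKM-3D arrays. Lyz2, the lysozyme gene of myeloid cells, read 9.17, 9.26 and 9.10 against 5.37, 4.79 and 5.36 and fell 16.1-fold. Cd53 fell by 2.91 and C1qb, which also counts as a complement gene, by 1.63. The defining markers Ptprc and Adgre1 lay under the median of all values (6.12) in both groups, at 5.17 and 5.07 on the fibroblast arrays. Cd68 was not called (0.18). Their part in the falls of chemokine and complement genes was not tested.

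Interferon-stimulated genes fell in 8 of 29 cases and rose in 0 (median -0.39). Stat2 and Irf9, which code for transcription factors of the interferon response, were among them. Stat2 read 8.56, 8.54 and 8.39 against 6.63, 6.78 and 6.68, and Irf9 read 8.22, 8.33 and 8.15 against 6.78, 6.67 and 6.85. The RNA sensor gene Ddx58 read 9.32, 9.30 and 9.15 against 7.49, 7.40 and 7.91. Of 12 MHC class I genes 0 were called (median -0.34), with B2m at -0.51; 9 had an adjusted and 9 an unadjusted p under 0.05 (limma), all under 2-fold. Inhibitors of NF-kappaB went both ways. Tnfaip3 rose from 6.34, 6.41 and 6.31 to 8.88, 8.80 and 9.05 and Nfkbia from 8.58, 8.67 and 8.60 to 10.32, 10.56 and 10.52, while Nfkbib fell from 10.33, 10.41 and 10.35 to 9.05, 9.20 and 9.37. The subunit gene Rela fell by 1.04, a call lost with quantile normalization and without the first TSKM-3D array, and in the whole list 2 of 18 rose and 5 fell (median 0.03).

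Prostaglandin genes fell in 4 of 14 cases, with 0 rises (median -0.42). Slco2a1, the prostaglandin transporter, read 9.99, 9.74 and 9.95 against 6.74, 6.61 and 6.34. Ptges, which makes prostaglandin E2, read 10.65, 10.55 and 10.61 against 8.19, 8.19 and 8.35, and the prostacyclin synthase gene Ptgis fell by 2.26. Ptgs2, the inducible cyclooxygenase, was not called (-0.56).

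Transcription factors of mesenchymal lineages fell in 23 of 69 cases and rose in 1, with a median of -0.67. Snai1 and Snai2, repressors of epithelial genes, were both lower. Snai1 read 10.66, 10.48 and 10.64 on the fibroblast arrays and 7.85, 7.94 and 7.92 on the TSKM-3D arrays, and Snai2 read 10.38, 10.45 and 10.49 against 7.58, 7.58 and 7.72. They fell 6.45-fold and 7.01-fold. Zeb1, another such repressor, fell by 1.28. Twist1 was the rise, from 8.87, 8.87 and 8.85 to 10.06, 10.07 and 10.17, whereas Twist2 fell by 1.502.

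Sox9, a regulator of cartilage, read 9.32, 9.28 and 9.26 against 6.59, 6.39 and 6.36. Ebf1, a factor of stromal and adipocyte precursors, read 10.49, 10.58 and 10.56 against 7.91, 7.81 and 7.91. All 4 genes of the nuclear factor I family fell: Nfic (-2.28), Nfib (-1.96), Nfix (-1.88) and Nfia (-1.35). Another row of Nfib (0.00) and of Nfia (0.55) was not called, and both lost their calls with the mean of the rows. Prrx1, a limb mesenchyme factor, was not called at -0.87, and its relative Prrx2 fell by 2.02. Of 37 Hox genes, which hold positional identity, 6 fell and 0 rose (median -0.35). They were Hoxc12, Hoxa10, Hoxa13, Hoxc10, Hoxc6 and Hoxc8, with differences between -1.65 and -1.05. The Hoxc8 call was lost with quantile normalization and without the first TSKM-3D array.

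Among the Kruppel-like factors 3 of 16 rose and 2 fell (median 0.12). Klf5 and Klf6 rose by 1.81 and 1.10. Klf10 rose by 1.14, a call lost without the third TSKM-3D array. Klf13 fell from 8.89, 8.95 and 8.84 to 6.86, 7.01 and 6.95, and Klf2 was not called (0.13).

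On the cell surface, single integrins changed. Of 25 integrin genes 2 rose and 4 fell (median -0.13). Itga4, a receptor for fibronectin and VCAM1, read 6.49, 6.39 and 6.49 on the fibroblast arrays and 9.23, 9.09 and 9.38 on the TSKM-3D arrays. Itga11, a collagen receptor of fibroblasts, read 10.10, 9.98 and 9.81 against 6.996, 7.06 and 6.90. They differed by 2.78 ± 0.093 and -2.98 ± 0.10. The shared beta chain Itgb1 was not called (0.54). Of 34 cadherin and adhesion genes 2 rose and 7 fell (median -0.06). Cdh3 (P-cadherin) read 9.68, 9.66 and 9.55 against 6.77, 6.83 and 6.73, and Ncam1 read 10.98, 11.01 and 10.80 against 8.45, 8.55 and 8.55. The desmosome genes Pkp2 and Dsc2 rose by 1.26 and 1.31, and Cdh2 (N-cadherin) was not called (-0.28).

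Guidance genes changed often, with 15 of 44 lower and 6 higher (median -0.41). Sema7a, a membrane-anchored semaphorin, read 9.29, 9.27 and 9.41 against 6.37, 6.80 and 6.64. Robo2, a receptor for SLIT proteins, read 6.34, 6.27 and 6.21 against 8.90, 8.57 and 9.05. The first fell 6.57-fold and the second rose 5.93-fold. The neuronal growth genes Gap43 and Stmn2 also rose, Gap43 from 6.99, 6.95 and 6.88 to 10.47, 10.11 and 10.32 and Stmn2 by 2.44 ± 0.081. They were the 2 rises among 13 Schwann cell and neural markers, of which 2 fell, Tubb3 by 1.74 and Map2 by 1.23. Sox10, which defines Schwann cells, was not called (-0.19). The 13 markers summed to 1390 to 1432 on the fibroblast arrays and 2962 to 3307 on the TSKM-3D arrays on the linear scale, but their median level went from 6.94 to 5.99, since Gap43 and Stmn2 made up most of the gain in the sum. Their part in the guidance gene results was not tested.

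The CCN family of matricellular proteins was split. Ccn1 and Ccn2, targets of the YAP coactivator, read 11.78, 11.74 and 11.79 against 12.87, 12.90 and 12.87 and 11.56, 11.44 and 11.61 against 12.67, 12.69 and 12.74. Ccn5, a growth-restraining member, read 11.30, 11.23 and 11.17 against 8.12, 8.13 and 7.95. The first 2 rose by 1.11 ± 0.068 and 1.17 ± 0.084, and Ccn5 fell by 3.16 (SE 0.079). In the list of 31 actin, contractile and CCN genes 4 rose and 5 fell (median -0.01). With quantile normalization 4 rose and 3 fell, since Actg2 and Acta1 lost their calls. S100a4, also known as fibroblast-specific protein, fell from 11.44, 11.45 and 11.46 to 9.35, 9.12 and 9.35.

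Of the 2 main glucose transporter genes 1 rose and 1 fell. Slc2a3, the glucose transporter GLUT3 of neurons and early embryos, read 7.30, 7.06 and 7.11 on the fibroblast arrays and 9.61, 9.59 and 9.66 on the TSKM-3D arrays. Slc2a1, the common transporter GLUT1, read 12.08, 11.93 and 11.88 against 10.82, 10.93 and 10.88. The differences were 2.46 ± 0.081 and -1.09 ± 0.083. Hk2, the first enzyme of glycolysis, rose by 1.57, and the lactate exporter gene Slc16a3 fell by 1.48. In this list 3 of 22 rose and 2 fell (median 0.11).

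Fatty acid genes fell in 7 of 23 cases and rose in 1 (median -0.34). Scd1 and Fads1, enzymes that put double bonds into fatty acids, fell by 1.48 and 1.39. Pparg, the master factor of adipocytes, read 7.25, 7.16 and 7.196 against 5.85, 6.01 and 5.82. Plin2, which coats lipid droplets, rose from 10.62, 10.59 and 10.55 to 11.88, 11.87 and 11.91. Of 23 cholesterol genes 1 rose (4.35%) and 2 fell (8.7%), near the shares of all genes (3.25% and 7.58%), with a median of -0.12. With quantile normalization 2 rose and 1 fell.

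Genes of amino acid and protein folding stress fell more often than they rose, as did all genes (7.58% lower, 3.25% higher). In the list of 30 ATF4 and unfolded protein response genes 9 fell (30.0%) and 1 rose (3.33%), with a median of -0.55. Slc6a9, a glycine transporter, read 10.21, 10.18 and 10.17 against 7.54, 7.63 and 7.54. Chac1, which degrades glutathione, read 9.77, 9.84 and 9.91 against 7.76, 8.07 and 7.66, and Xbp1, a factor of the endoplasmic reticulum stress response, read 11.38, 11.36 and 11.35 against 9.68, 9.63 and 9.74. The rise was Atf3, described above. Atf4 itself (0.037) and the chaperone Hspa5 (0.14) were not called.

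Antioxidant genes were mixed, with 4 of 25 higher and 4 lower (median 0.07). Gsta4, a glutathione transferase that removes lipid aldehydes, read 9.38, 9.31 and 9.35 against 11.30, 11.14 and 11.30. Nqo1, a standard target of NRF2, read 8.78, 8.71 and 8.88 against 7.21, 7.12 and 7.63. The cystine transporter gene Slc7a11 fell by 1.66, and Nfe2l2, the NRF2 gene, by 1.07, a call lost with quantile normalization. The core of the antioxidant element, TGACNNNGC (searched on both strands, from 250 bases before to 50 after each gene start in RefSeq), occurred in 33.3% of the 27 promoter windows of this list. It was found in 12.4% of all windows, 13.2% of those of tested genes, 15.4% of those of genes that rose and 13.3% of those of genes that fell.

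Cell division genes fell in part. Of 26 cyclin and CDK genes 6 fell (23.1%) and 0 rose (median -0.27). Of 53 mitotic genes 7 fell (13.2%) and 0 rose (median -0.53), and of 42 replication genes 6 fell (14.3%) and 0 rose (median -0.32). The shares of all genes were 7.58% lower and 3.25% higher. Ccnb2, a mitotic cyclin, read 11.22, 11.16 and 11.24 on the fibroblast arrays and 9.80, 9.82 and 9.95 on the TSKM-3D arrays. Mki67, the proliferation antigen, read 10.43, 10.35 and 10.38 against 8.91, 8.59 and 9.23, and Ube2c, a ubiquitin-conjugating enzyme of mitotic exit, read 9.83, 9.86 and 9.98 against 8.23, 8.36 and 8.35. All 3 were lower on every TSKM-3D array, with differences of -1.35, -1.47 and -1.57. Under quantile normalization the number of replication genes that fell dropped to 3 of 42, a share near that of all genes (1252 of 19937 in that setting).

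Clustered histone genes fell in 7 of 30 cases and rose in 0, with a median of -0.61. H2bc3 read 10.03, 10.38 and 10.21 against 7.46, 7.60 and 7.92, and H4c4 read 12.90, 12.93 and 12.88 against 10.81, 10.84 and 11.01. Histone genes of these clusters are near-copies of each other, so their rows may share signal.

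Inhibitors of the cycle went both ways. Cdkn2a, the gene of p16 and ARF and a barrier to reprogramming, read 8.43, 8.42 and 8.25 against 9.89, 9.69 and 10.03 and rose by 1.51 ± 0.097. Rb1, the retinoblastoma gene, read 7.97, 7.99 and 7.90 against 9.34, 9.19 and 9.59 and rose by 1.42 ± 0.10. Cdkn1b fell by 1.24 on the row used, and its other row was not called (-0.58), nor was the mean of the rows (-0.91). The list counted 2 rises and 4 falls among 17 genes (median -0.32).

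Targets of p53 rose in 7 of 27 cases and fell in 2, with a median of 0.34. Pmaip1 (Noxa), which triggers cell death, read 6.47, 6.87 and 6.34 against 9.14, 8.85 and 9.30. The death receptor gene Fas read 6.07, 6.01 and 5.99 against 8.60, 8.17 and 8.72, with the second TSKM-3D array lowest, and Perp read 5.76, 5.88 and 5.73 against 7.72, 7.73 and 8.16. The 3 genes rose by 2.53 ± 0.16, 2.47 ± 0.16 and 2.08 ± 0.13. Mdm2, the feedback inhibitor of p53, lay just under 2-fold (0.99 ± 0.092). In the BCL2 family, to which Pmaip1 also belongs, Mcl1 rose by 1.63 and Bak1 fell by 1.77.

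Ribosome biogenesis genes rose in 12 of 60 cases and fell in 0, with a median of 0.68. Tsr1, needed to mature the small subunit, read 8.99, 8.97 and 8.89 on the fibroblast arrays and 10.64, 10.63 and 10.69 on the TSKM-3D arrays. Nop58, a core protein of small nucleolar particles, read 9.34, 9.44 and 9.504 against 11.02, 10.88 and 11.06. Both were well apart, with differences of 1.70 ± 0.070 and 1.56 ± 0.086 (adjusted p = 7.56e-09 and 5.69e-08, limma). Mrto4 rose by 1.60 on the row used, while its other row differed by -0.84 and the call was lost with the mean of the rows (0.38). With quantile normalization 19 members rose, and without the second TSKM-3D array 15.

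The promoters of these genes are shown because MYC binds the E-box CACGTG. This sequence reads the same on both strands. It lay in 4 of the 11 windows of members that rose (36.4%), in 21.4% of the 56 windows of all tested members, in 8.24% of the windows of all tested genes and in 7.15% of the 32851 windows of all genes, each from 250 bases before to 50 after the start. Genes that rose held it in 10.1% of windows and genes that fell in 6.59%. Another motif searched, TGANTCA, lay in 4.98% of windows of genes that rose. It lay in 6.26% of windows of genes that fell and 6.9% of those of all tested genes. A match is a description and not a bound site. The matching stretches carry the E-box in capitals and 12 bases on either side where the window allowed. Each of these E-boxes began after the gene start given in RefSeq, and none before it. They lie at chr11:72441355-72441376, chr11:3963965-3963994, chr11:74898092-74898121 and chr17:71616220-71616249 (GRCm38.p6, plus strand, RefSeq):
Mybbp1a: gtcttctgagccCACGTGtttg
Pes1: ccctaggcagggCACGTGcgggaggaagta
Tsr1: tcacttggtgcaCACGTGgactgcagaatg
Wdr43: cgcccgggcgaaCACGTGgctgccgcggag

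Mybbp1a, a nucleolar protein that binds MYB, read 9.84, 9.82 and 9.76 against 10.998, 10.998 and 10.99. Pes1, part of the complex that processes large subunit RNA, read 9.16, 9.06 and 9.20 against 10.21, 10.20 and 10.26, and Wdr43, of the small subunit processome, read 9.79, 9.72 and 9.75 against 11.08, 11.05 and 11.005. All 3 were higher on every TSKM-3D array, by 1.19, 1.08 and 1.30.

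Polyamine and nucleotide synthesis genes rose in 6 of 23 cases and fell in 2 (median 0.44). Azin1, which frees ornithine decarboxylase from its inhibitor, read 8.22, 8.05 and 8.29 against 10.42, 10.35 and 10.39. Odc1, ornithine decarboxylase and a MYC target, rose by 1.28 ± 0.17 on the row used; the other row was not called (0.60), nor was the mean of the rows (0.94). Umps, of pyrimidine synthesis, rose by 1.502, and Shmt2, of mitochondrial one-carbon metabolism, fell by 1.43.

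Small nucleolar RNA genes, most of which guide chemical marks on ribosomal RNA, were called in both directions. Of 51 tested 12 fell and 4 rose (median -0.02). Snora69 read 8.54, 8.51 and 8.32 against 5.18, 5.19 and 4.57, and Snord118 read 7.04, 7.08 and 6.83 against 4.36, 4.23 and 4.39, the latter under the arrays' lower quartile. Snord14e rose from 7.28, 7.31 and 7.31 to 8.94, 8.94 and 9.11. Snord73a rose by 1.71 and Snord73b fell by 2.32. Gas5, a host transcript of small nucleolar RNAs, rose on all 4 of its rows, between 1.12 and 2.54.

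Few chromatin genes were called. Of 39 Polycomb and remodeller genes 1 rose and 0 fell (median -0.20), and with array medians set equal 1 rose and 2 fell. The rise was Chd7, a remodeller of enhancers, which read 7.63, 7.51 and 7.41 against 8.71, 8.67 and 8.74. Of its 30 array rows 19 were called higher and 0 lower, between 0.45 and 2.42. Among 18 genes of DNA methylation and demethylation 2 rose and 1 fell (median 0.09). Gadd45a and Gadd45g, stress genes that also take part in DNA repair, rose from 8.15, 7.499 and 7.92 to 9.61, 9.74 and 9.68 and from 9.35, 9.33 and 9.35 to 11.32, 11.42 and 11.48. Apobec1, a cytidine deaminase, fell by 1.34.

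Markers of further cell types are set beside the shares of all genes, 3.25% higher and 7.58% lower. Of 14 endothelial and 12 keratinocyte markers 0 were called; 4 and 1 had an unadjusted p under 0.05 and 3 and 0 an adjusted one (limma), all under 2-fold. Of 17 skeletal muscle markers 1 fell (5.88%), Acta1. Of 10 smooth muscle markers 3 fell (30.0%), and of 9 adipocyte markers 2 fell (22.2%), with 0 rises in either. Of 13 cartilage and bone markers, Sox9 fell and Phex, a phosphate-regulating peptidase gene of bone, rose from 4.45, 4.34 and 4.37, under the lower quartile, to 7.77, 7.13 and 7.80. Of 14 early germ layer markers 1 fell (7.14%), Gata6 (-1.37). The cell type defining genes Pecam1, Myod1, Adipoq and Krt5 were under the median of all values in the fibroblasts, at 5.04, 5.84, 4.15 and 5.53.

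Called genes that lie next to each other among the genes tested formed 5 runs of 3 or more that rose and 8 that fell. Among those that rose, the next longest after the miR-17 cluster was Mlf1, Gfm1, Lxn and Rarres1 on chromosome 3, with differences between 1.26 and 1.83. Lxn and Rarres1 code for related carboxypeptidase inhibitors. On the X chromosome Pcdh19, Tnmd, Tspan6 and Srpx2 all fell, with differences between -4.91 and -1.45. On chromosome 19 the desaturase genes Fads1, Fads2 and Fads3 fell with their neighbour Rab3il1, with differences between -2.49 and -1.18. The zinc finger genes Zfp58, Zfp87, Zfp748 and Zfp729b on chromosome 13 fell, with differences between -1.96 and -1.52, and are similar enough in sequence that their rows may share signal. These runs are given with no test.

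**Figure D5:**
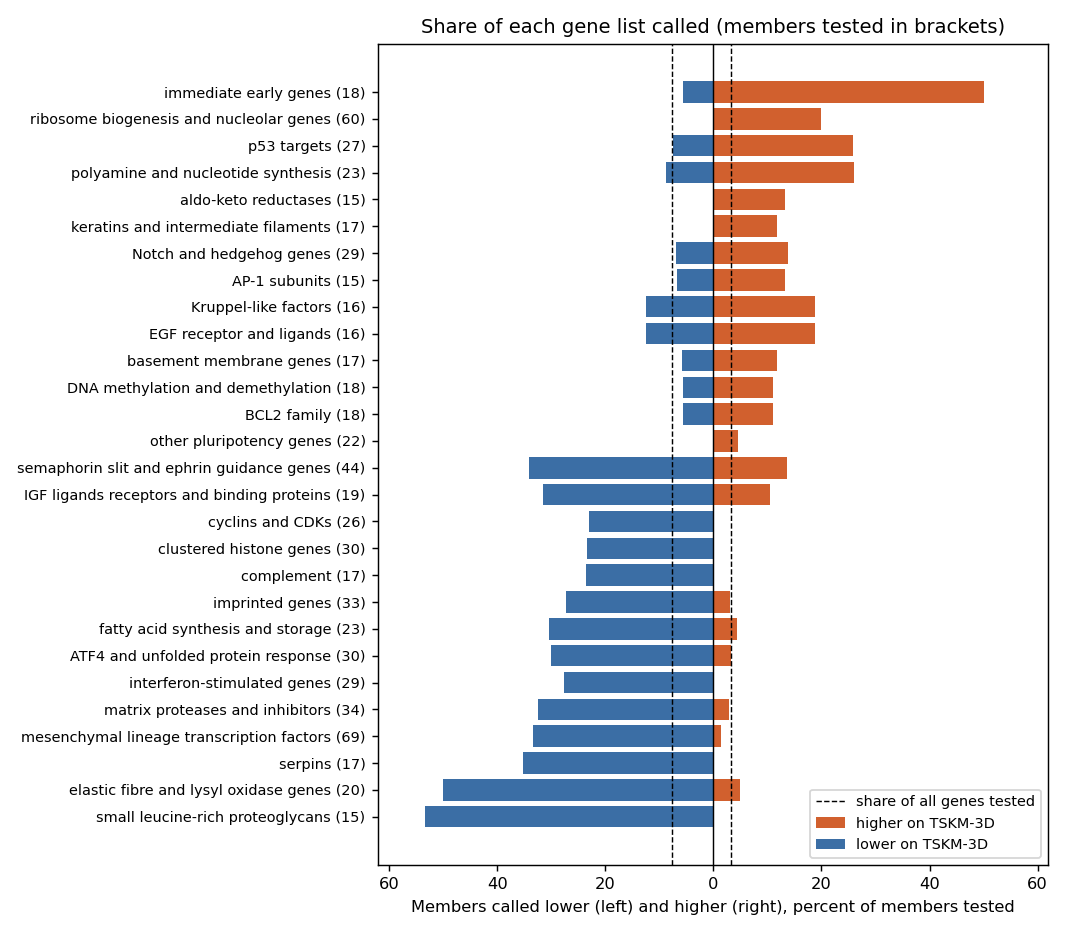
Percent of the tested members of each gene list called lower (blue, left) and higher (orange, right) on the TSKM-3D arrays. Lists of at least 15 tested members with any call (cell type markers left out) were ordered by percent higher minus percent lower. The 28 lists shown were taken in equal number from both ends of that order. Some lists left out fell more one-sidedly than lists shown at the higher end rose. Brackets give the members tested. Dashed lines mark the shares of all genes, 7.58% lower and 3.25% higher. Immediate early genes (9 of 18) lie at the higher end and small leucine-rich proteoglycans (8 of 15) at the lower end.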

How the data were processed

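Expression was measured on whole-transcript microarrays (biotin-labelled with an Affymetrix kit, per the labels' protocols). The deposited table holds 1 column of log2 values per array, whose normalization and software the sources used here do not give, and array signal, not read depth, limits the precision. By the probe table of the platform, 21640 of 34760 array rows had 1 gene symbol, 1321 had several and 11799 were not in it. Each of the 19937 genes was read from 1 row, the brightest on average over all 9 arrays where there were several (954 genes), and 19855 matched the RefSeq table of GRCm38.p6.

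All 9 arrays were fitted in limma 3.58.1 (R 4.3.3; lmFit and eBayes, values as deposited), with Benjamini-Hochberg adjustment over all genes; the procedure was tested on simulated data. Named genes were the 15 largest rises and falls whose groups did not overlap, the factors, and up to 4 called members in each direction of each of 74 gene lists, with members that define a list; further called members were named after their values were seen. The comparison, the lists and the rule were chosen with earlier results of these data known. The alternatives were quantile normalization, equal array medians, no dim genes, a floor, the mean of a gene's rows, 6 arrays only, trended and robust variances, a test against 2-fold (limma's treat), a replicate block, the third fibroblast array with the TSKM-3D arrays, and each array left out. Sequences came from RefSeq (GRCm38.p6). The labels state no pairing of arrays by replicate number. Same-numbered arrays' deviations from their group means correlated at -0.0726, 0.0618 and 0.00616. Whether such arrays share a culture or mouse was not tested.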

Additional observations from a re-analysis of the deposited data

Results flagged for a closer look

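A signal lay in array rows outside the comparison of named genes. Of the 11799 rows with no listed gene, 594 were called higher on the TSKM-3D arrays and 457 lower, by the same rule (limma, adjusted over all rows). Rows with 1 gene symbol gave 748 higher and 1631 lower of 21640, and rows with several symbols 78 and 77 of 1321. Which transcripts the unnamed rows read was not analysed here.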

How the results depend on the processing

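The counts of 648 genes higher and 1511 lower stayed within 1.5 times under all alternatives but 2. None of the 304 called genes picked by the naming rule reversed direction. Reversal was not checked for genes that were not called or were named beyond the rule. Tested against 2-fold (limma's treat), 343 genes were higher and 797 lower. With the third fibroblast array placed with the TSKM-3D arrays, as its cell type label has it, 0 were higher and 0 lower, while 5359 genes had an unadjusted p under 0.05 (limma). The fit with a replicate block gave 648 and 1511, and changed no call count, though the labels state no pairing by replicate number. Leaving out 1 array at a time gave 598 to 734 genes higher and 1488 to 1612 lower. Quantile normalization gave 803 higher and 1252 lower, so that 39.1% of called genes were higher, against 30.0% as deposited. Of the 304 called genes picked by the naming rule, 23 lost the call under some alternative other than treat and the moved array, and 65 did so under treat. Of the called genes named beyond the rule, Mir329, Hoxc8, Prelp, Rela, Serpinh1, Nfia and Nfib also lost it under such an alternative. The dimmest genes gave few calls, so changes there may go unseen.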
